A study of Mus musculus with 6 samples.

Results

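Inflammatory cytokines and acute phase genes were examined in primary and metastatic ovarian tumours of mice. The set held 10 genes, chosen by symbol, of the 30142 genes measured: Il6, Il1b, Tnf, Ptgs2, Lcn2, Saa3, Nfkbiz, Nfkbia, Socs3 and Il1rn. All 10 were on the array, each with 1 probe set, so that no choice between probe sets arose. The tumours grew from ID8-VEGF cells, a mouse ovarian surface epithelial line that had been made to produce vascular endothelial growth factor, placed beneath the membrane around the ovary. Both groups shared this line and this route. The mice were C1M3, C1M5 and C2M3, and each of the 3 gave 1 primary and 1 metastatic tumour at a late stage, with 1 array run per tumour. The comparison asks how metastatic tumours differ from primary tumours. Strain, age, treatment and the site of the metastatic tumours were not given in the sources used here.

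Interleukin-1 beta and tumour necrosis factor are cytokines that open an inflammatory response. Through their receptors they free the transcription factor NF-kB from its inhibitor, and NF-kB then raises further cytokines such as interleukin-6, the prostaglandin enzyme Ptgs2 and its own brakes. Interleukin-6 signals through STAT3, which raises Socs3, the feedback inhibitor of that pathway, and acute phase proteins such as the serum amyloids and lipocalin-2, which liver makes in quantity and which other tissues make locally. In ovarian tumours both tumour cells and infiltrating macrophages are known sources of such cytokines.

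The regulatory letters that tie these genes to that circuit were read from RefSeq promoters of GRCm38.p6, which run from 250 bases before to 50 bases after a start site. Of the 10 genes, 9 had a promoter in that table (11 start sites in all), and Nfkbiz had none. The stretches below are shown because they hold the known binding motifs of the circuit's factors both in genes whose signal stood above background and in genes at background. Capitals mark the motif, and each stretch is written along the gene's own strand. Il6 (chr5:30013040-30013109, plus strand) and Nfkbia (chr12:55492648-55492706, minus strand) carry the NF-kB motif, Socs3 (chr11:117969482-117969550, minus strand) carries the STAT motif, and Saa3 (chr7:46715738-46715805, minus strand) and Lcn2 (chr2:32387918-32387985, minus strand) carry the motif of C/EBP factors, which act in the acute phase response.
Il6: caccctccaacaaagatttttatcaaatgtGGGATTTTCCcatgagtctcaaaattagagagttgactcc
Nfkbia: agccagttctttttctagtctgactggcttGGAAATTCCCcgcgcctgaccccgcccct
Socs3: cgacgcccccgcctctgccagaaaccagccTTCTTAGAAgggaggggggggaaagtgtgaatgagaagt
Saa3: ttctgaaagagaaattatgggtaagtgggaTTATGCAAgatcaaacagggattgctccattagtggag
Lcn2: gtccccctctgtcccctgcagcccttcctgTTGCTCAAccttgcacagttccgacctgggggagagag
The motif began 44 bases before the start in Il6, 29 in Nfkbia, 154 in Socs3, 99 in Saa3 and 216 in Lcn2. On both strands, the NF-kB motif was found in promoters of 2 of the 9 genes and in 4.51% of 32851 promoters of the same length. The STAT motif, searched as TTCNNNGAA, was found in 1 of the 9 genes and in 8.3% of promoters. The C/EBP motif, searched as TTGCNNAA, was found in 4 of the 9 genes (Il6, Ptgs2, Saa3 and Lcn2) and in 10.8% of promoters. These matches describe the letters in the window, and binding was not measured here.

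Values are log2 intensities. The signal of a probe set depends on its probes, so that levels of different genes were not set against each other. To see which genes stood above background, each value was instead compared with the 1717 olfactory and vomeronasal receptor genes on the same array. These serve smell and were taken here as a measure of background. Their 95th percentile lay between 4.78 and 6.11 over the 6 arrays. The primary array of C1M3 (5.85) and the metastatic arrays of C1M5 (5.74) and C2M3 (6.11) lay above the other 3 in this, so that background itself differed between arrays. Nfkbia and Il1rn exceeded that level on all 6 arrays, Ptgs2 on 5, Saa3 on 4, and Il1b, Lcn2 and Nfkbiz on 3. Il6, Tnf and Socs3 exceeded it on 0 arrays.

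**Figure D1:**
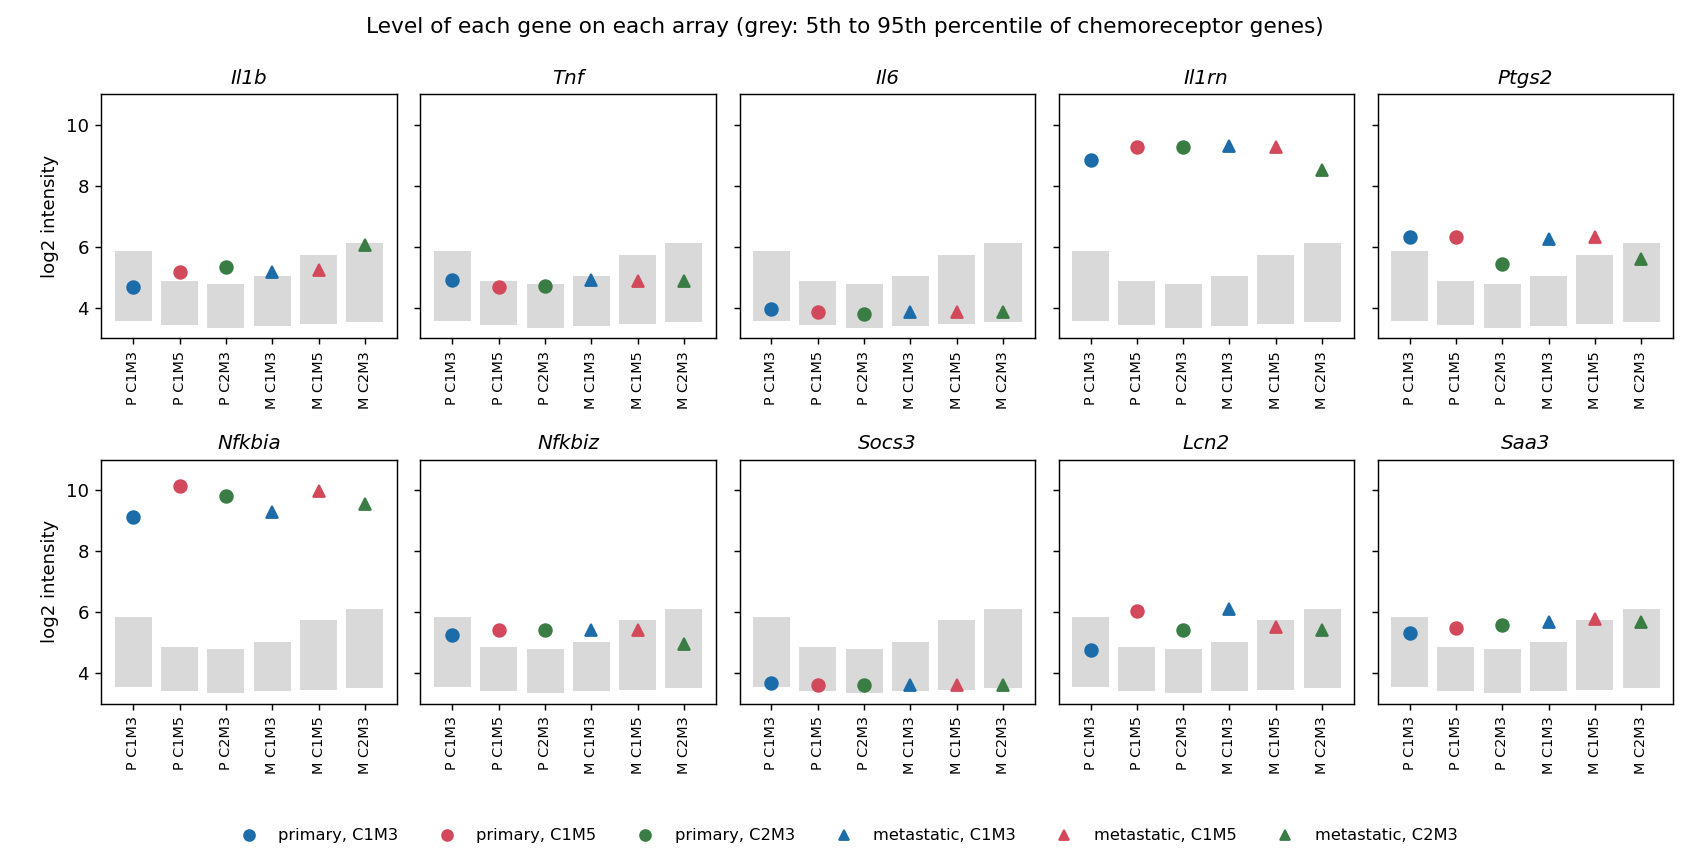
Log2 intensity (vertical axis) of the 10 genes on each of the 6 arrays (P primary, circles; M metastatic, triangles; colour by mouse), with grey bars from the 5th to the 95th percentile of the receptor genes of the same array. Nfkbia and Il1rn lie above the bar on all 6 arrays, and Il6, Tnf and Socs3 lie above it on none of them.

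No gene of the set differed between metastatic and primary tumours beyond the test. With limma, 0 of the 10 genes passed an adjusted p of 0.05, and the smallest adjusted p among them was 0.842. Over all genes tested 0% passed as well, and the smallest adjusted p there was 0.407. Means were higher in metastatic tumours for 5 of the 10 genes, against 55.1% of all genes, and lower for the other 5. The median of the 10 differences was 0.01, against 0.02 over all genes. An unadjusted p under 0.05 was found for 1 of the 10 (Saa3), where 4.21% of all genes had one. The metastatic tumour was higher in all 3 mice for 3 of the 10 (Il1b, Tnf and Saa3), against 11.1% of all genes, and lower in all 3 for 0, against 8.64%. When each array was centred on its median, 0 of the 10 kept 1 sign in all 3 mice, against 5.84% of all genes on the higher side and 19.6% on the lower side, and the groups overlapped for all 10, where they did not for 2.16% of all genes on the higher and 10.3% on the lower side. Since these are whole tumours, fewer cells of a type and less RNA per cell cannot be told apart.

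**Figure D2:**
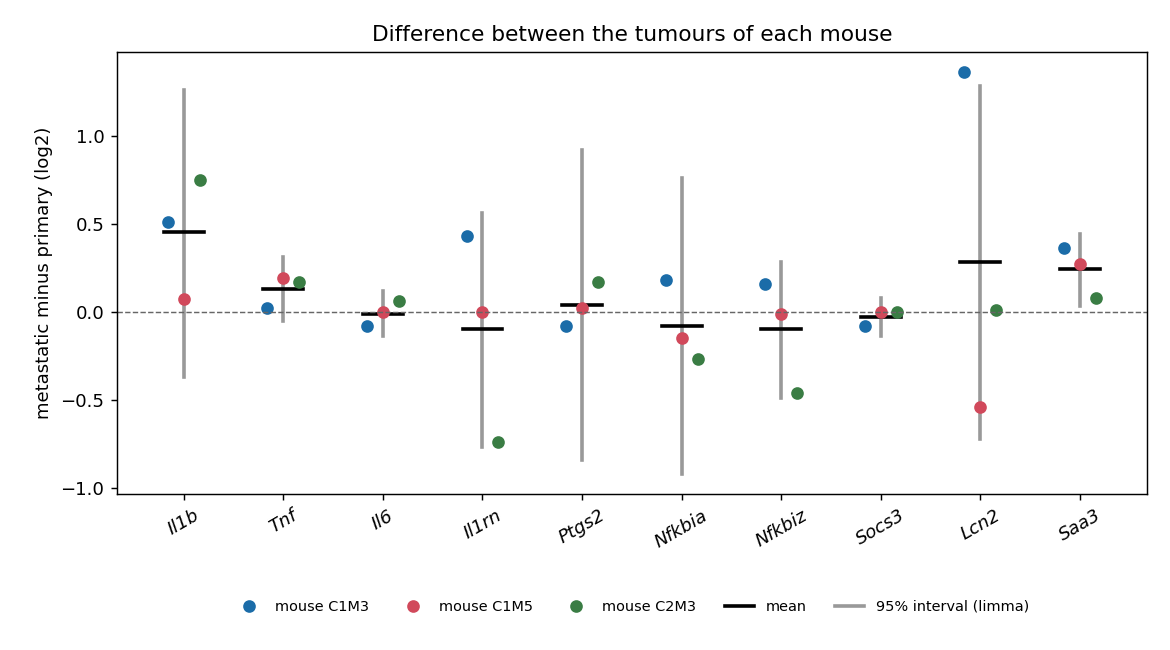
Metastatic minus primary difference on the log2 scale (vertical axis) for each gene, with 1 point per mouse, the mean as a black bar and its 95% interval from limma as a grey line. The interval is from the fit with tissue as the only term, which leaves out the pairing by mouse. It therefore does not measure the spread of the points. The points of Lcn2 run from -0.54 in C1M5 to 1.36 in C1M3, while those of Il6 and Socs3 lie between -0.08 and 0.06.

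Among the cytokine ligands, Il1b encodes interleukin-1 beta. Its log2 intensity was 4.66, 5.17 and 5.32 in the primary tumours of C1M3, C1M5 and C2M3, and 5.17, 5.25 and 6.07 in their metastatic tumours. The primary tumour of C1M3 was lowest and the metastatic tumour of C2M3 highest, and the groups overlapped. The differences within the mice were 0.51, 0.07 and 0.75, with a mean of 0.45 (SE 0.32, 95% interval -0.37 to 1.26, limma adjusted p = 0.842). With the mouse as a block the interval was -0.09 to 0.98 (limma adjusted p = 0.841). In that metastatic tumour of C2M3 the 95th percentile of receptor genes was 6.11, so that the highest Il1b value did not exceed background by this measure. The mean difference was 0.16 without that array and 0.25 without the primary array of C1M3.

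Tnf, which encodes tumour necrosis factor, had 4.90, 4.69 and 4.71 in primary and 4.92, 4.88 and 4.88 in metastatic tumours, in the same order of mice. All 6 values lay within 0.24 of each other and inside the receptor gene range. The mean difference was 0.13 (SE 0.07, 95% interval -0.05 to 0.31, limma adjusted p = 0.842). Il6, which encodes interleukin-6, had 3.94, 3.86 and 3.80 in primary and 3.86 in each of the 3 metastatic tumours. Its mean difference was -0.01 (SE 0.05, 95% interval -0.14 to 0.12, limma adjusted p = 0.987). Because neither gene stood above background on any array, a change of its transcript below that level could not be told on these arrays. A narrow interval around 0 therefore does not show that the transcript was equal. The values shared between arrays (4 arrays at 3.86 for Il6) agreed to 4 decimals, and 51.5% of all genes had at least 1 such tie in the deposited values. Ties narrow the spread from which the errors of these genes were computed.

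Il1rn encodes the interleukin-1 receptor antagonist, which occupies the receptor of interleukin-1 without activating it. Its values were 8.86, 9.26 and 9.26 in primary and 9.29, 9.26 and 8.51 in metastatic tumours, and 3 arrays shared the value 9.26. The metastatic tumour of C2M3, which had the highest Il1b value, had the lowest Il1rn value. The differences within the mice were 0.43, 0.00 and -0.74, with a mean of -0.10 (SE 0.26, 95% interval -0.77 to 0.56, limma adjusted p = 0.929). Without the metastatic tumour of C2M3 the mean difference was 0.15. Of the marker genes of macrophages, which are known to make this antagonist, all 10 were measured and 5 exceeded the receptor gene level on all 6 arrays. The mean of that list was 6.48 in the primary tumour of C1M3 and 8.14 to 9.10 in the other arrays, and its part in the Il1rn and Il1b values was not tested.

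Ptgs2 encodes cyclooxygenase-2, the inducible enzyme of prostaglandin synthesis. Its values were 6.33, 6.31 and 5.42 in primary and 6.25, 6.33 and 5.60 in metastatic tumours, so that values lay together by mouse and both tumours of C2M3 were lower than all tumours of the other mice. The mean difference between tissues was 0.04 (SE 0.34, 95% interval -0.84 to 0.92, limma adjusted p = 0.992). With the mouse as a block the SE was 0.08 and the interval -0.21 to 0.28 (adjusted p = 0.914). Differences between mice held 97.8% of its sum of squares, and 0.889% of all genes had a share as large, where the median share was 39.7%. A limma F test of the mouse, added after these values had been seen, gave Ptgs2 an adjusted p of 0.656 (unadjusted p = 0.0052), and 0% of all genes passed it after adjustment, with 6.1% at an unadjusted p under 0.05.

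The NF-kB inhibitor gene Nfkbia, whose protein IkB-alpha holds NF-kB in the cytoplasm and is itself an NF-kB target, likewise had its 2 tumours of a mouse close together. It had 9.12, 10.14 and 9.82 in the primary tumours of C1M3, C1M5 and C2M3, and 9.30, 9.99 and 9.55 in their metastatic tumours. Both tumours of C1M3 were lowest and both of C1M5 were highest. The mean difference between tissues was -0.08 (SE 0.33, 95% interval -0.92 to 0.76, limma adjusted p = 0.967), and with the mouse as a block the interval was -0.46 to 0.30 (adjusted p = 0.874). Differences between mice held 92% of the sum of squares, a share reached by 2.78% of all genes. The F test of the mouse gave an adjusted p of 0.729.

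Nfkbiz encodes IkB-zeta, a nuclear cofactor of NF-kB that is needed for a subset of its targets, Lcn2 among them. Its values were 5.25, 5.40 and 5.41 in primary and 5.41, 5.40 and 4.94 in metastatic tumours. The metastatic tumour of C2M3 was lowest, and the mean difference was -0.10 (SE 0.15, limma adjusted p = 0.872). Socs3, which encodes the suppressor of STAT3 signalling, had 3.69, 3.61 and 3.61 in primary and 3.61, 3.61 and 3.60 in metastatic tumours. As with Il6, all values were at background, and the mean difference of -0.03 (SE 0.04, limma adjusted p = 0.876) does not bear on a change below that level.

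Of the acute phase genes in the set, Lcn2 encodes lipocalin-2, which binds bacterial iron carriers. It had 4.76, 6.05 and 5.41 in primary and 6.12, 5.50 and 5.42 in metastatic tumours. The lowest and the highest value came from the same mouse, C1M3. The differences within the mice were 1.36, -0.54 and 0.01, with a mean of 0.28 (SE 0.39, 95% interval -0.72 to 1.28, limma adjusted p = 0.867). The mean difference was -0.05 without the primary array of C1M3 and 0.60 without the primary array of C1M5. Of the markers of neutrophils, which store lipocalin-2, 12 were measured and 4 exceeded the receptor gene level on at least 1 array, none of them on all 6, and the list mean lay between 4.51 and 4.72. In C1M3, whose tumours held the lowest and the highest Lcn2 value, the list mean was 4.58 in the primary and 4.61 in the metastatic tumour. Of the 4 markers, Csf3r had 5.26 and 6.65 in these tumours, S100a9 5.25 and 5.48, S100a8 4.97 and 4.80, and Camp 5.31 and 5.10. The part of neutrophils in the Lcn2 values was not tested.

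Saa3, which encodes a serum amyloid A protein made mainly outside the liver in mice, had 5.32, 5.49 and 5.58 in primary and 5.69, 5.76 and 5.67 in metastatic tumours. Its groups did not overlap, which held for 1 of the 10 genes in this direction, against 4.79% of all genes, and for 0 in the other, against 2.84%. The differences within the mice were 0.36, 0.27 and 0.08, with a mean of 0.24 (SE 0.08, 95% interval 0.03 to 0.44, limma adjusted p = 0.842, unadjusted p = 0.031). With the mouse as a block the unadjusted p was 0.0616. With the arrays centred, the groups of Saa3 overlapped and its mean difference was 0.13. Receptor gene medians were 4.35, 3.99 and 3.91 on the primary arrays and 4.01, 4.16 and 4.30 on the metastatic arrays, and thus were higher in the metastatic tumour of C1M5 and of C2M3 but not of C1M3. The part of this background in the Saa3 difference was not tested beyond the centring.

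A few other acute phase genes, among them Hp, Serpina3n and Steap4, varied more between tumours than Saa3 and Lcn2 did, though no gene of their list passed the test. Of a list of 24, 19 were measured, of which 7 had a wider range over the arrays than Lcn2 and 12 a narrower one. Of these 19, 12 had higher and 7 lower means in metastatic tumours. The median difference was 0.04, and 0 passed the threshold. Hp encodes haptoglobin, which binds free haemoglobin. It had 7.18, 13.46 and 13.17 in primary and 10.29, 10.99 and 8.48 in metastatic tumours, a range of 6.28 log2 units. The primary tumours thus held both the lowest and the highest values, and the differences within C1M3, C1M5 and C2M3 were 3.11, -2.46 and -4.69 (mean -1.35, SE 1.95, limma adjusted p = 0.871). Serpina3n, a protease inhibitor gene, had the same order of arrays, with 5.76, 12.41 and 11.08 in primary and 8.72, 9.57 and 7.26 in metastatic tumours (mean difference -1.23, SE 1.92, limma adjusted p = 0.882). Steap4, a metalloreductase gene, was highest in the primary tumour of C2M3 at 10.44, against 6.41 to 7.34 on the other arrays (mean difference -1.31, SE 1.10). Orm1, which encodes orosomucoid, was also highest there at 6.36, against 4.62 to 4.79 elsewhere (mean difference -0.62, SE 0.49).

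Liver markers were at background in these tumours: 5 were measured, 0 lay above the median level of all genes, and their mean lay between 4.0 and 4.14. Markers of fat cells, which also express Hp, Steap4 and Orm1, had a mean of 5.66, 8.88 and 11.08 in the primary tumours of C1M3, C1M5 and C2M3 and of 5.43 to 5.87 in metastatic tumours. Among metastatic tumours, Hp and Serpina3n were highest in C1M5 and lowest in C2M3. The fat cell mean there was 5.87 in C1M3, 5.81 in C1M5 and 5.43 in C2M3. Of its 8 markers, 2 exceeded the receptor gene level on all 6 arrays. In the same order of mice, Fabp4 had 7.71, 8.13 and 6.51 in metastatic tumours, and Retn had 7.16, 6.72 and 6.18. The part of fat cells in these values was not tested.

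**Figure D3:**
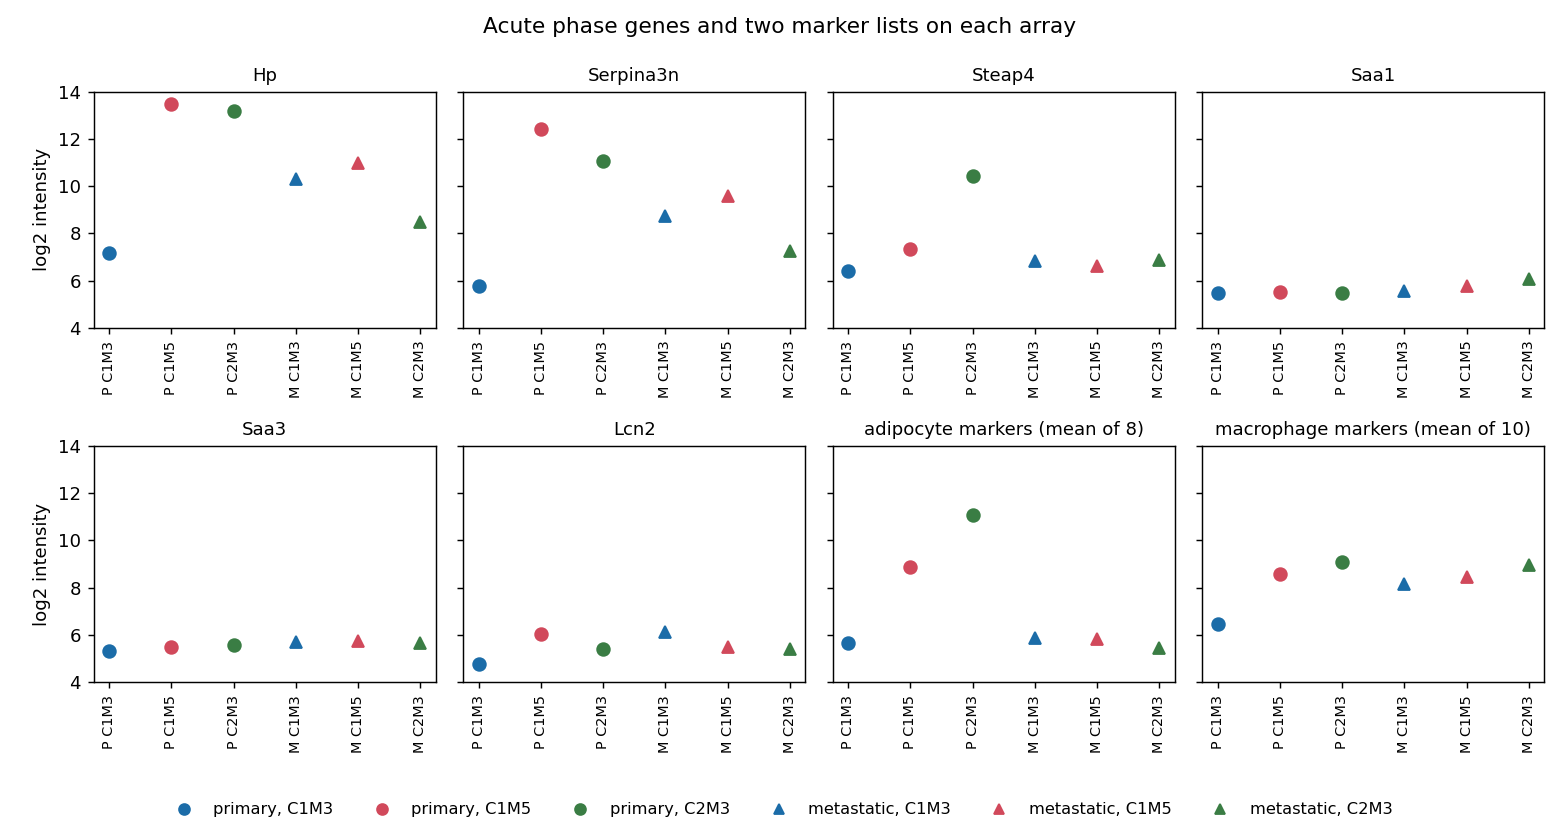
Log2 intensity (vertical axis) of acute phase genes and the mean of the fat cell and macrophage marker lists on each array (P primary, circles; M metastatic, triangles; colour by mouse). Hp runs from 7.18 to 13.46 and Serpina3n from 5.76 to 12.41, while Saa3 stays between 5.32 and 5.76.

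The rest of the pathway also showed no call. In 6 lists around the 10 genes, 130 further genes were measured, of which 0 passed the test. In the limma fit with tissue as the only term, 1 (Cyld) had an unadjusted p under 0.05, against 4.21% of all genes. The metastatic tumour was higher in all 3 mice for 20 of the 130 (15.4%, against 11.1% of all genes) and lower for 2 (1.54%, against 8.64%). With the arrays centred these counts were 9 and 12, where all genes gave 5.84% and 19.6%. The median difference of the 130 genes was 0.05. Centring turned the medians of 5 lists below 0, to -0.04 for NF-kB, -0.01 for interleukin-1 and TNF, -0.07 for interleukin-6, -0.03 for prostaglandins and -0.07 for other acute phase genes. The signs of these medians thus rest on the scaling. The median of all genes was 0.02 without and -0.09 with centring, in both cases below the medians of these 5 lists. Leaving out the primary array of C1M3 changed this order. The medians were then -0.0 for NF-kB, 0.01 for interleukin-1 and TNF, -0.01 for interleukin-6 and -0.02 for prostaglandins, against 0.04 for all genes. That of the other acute phase genes was then 0.05. Of the NF-kB factors and regulators, 23 of 27 were measured, with 15 higher and 8 lower means and a median of 0.07. Rel, the c-Rel subunit, had 6.84, 7.81 and 7.89 in primary and 8.05, 8.10 and 8.26 in metastatic tumours (mean difference 0.62, SE 0.31, limma adjusted p = 0.842). Cyld, a deubiquitinase that restrains NF-kB, had 6.94, 7.34 and 7.22 in primary and 7.57, 7.61 and 8.15 in metastatic tumours (mean difference 0.61, SE 0.20, limma adjusted p = 0.842). The groups did not overlap for either gene. Rela, the p65 subunit, was lower in the metastatic tumour of each mouse, by differences of -0.13, -0.38 and -0.55, and Tbk1, an IKK-related kinase, differed by 0.27 (SE 0.16).

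Of ligands, receptors and adaptors of interleukin-1 and TNF, 22 of 28 were measured, with 17 higher and 5 lower means and a median of 0.09. Casp1, the protease that cuts the interleukin-1 beta precursor, had 9.30, 10.69 and 10.50 in primary and 10.69, 10.76 and 11.78 in metastatic tumours (mean difference 0.91, SE 0.50, limma adjusted p = 0.842). Pycard, the inflammasome adaptor gene, differed by 0.85 (SE 0.50), the receptor gene Il1r1 by 0.50 (SE 0.53) and Il18, another Casp1 substrate, by 0.39 (SE 0.36). With the mouse as a block the SE was 0.34 for Casp1, 0.34 for Pycard, 0.21 for Il1r1 and 0.07 for Il18 (limma adjusted p = 0.841 for each). Casp1, like Il1b, was lowest in the primary tumour of C1M3 and highest in the metastatic tumour of C2M3. All 10 macrophage markers were also lowest in that primary tumour. Of these, 4 were highest in the metastatic tumour of C2M3 and 5 in its primary tumour, and their part in the Casp1 and Il1b values was not tested.

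In the interleukin-6 and STAT3 list, 22 of 24 genes were measured, with 15 higher and 7 lower means and a median of 0.04. The receptor gene Osmr differed by 0.46 (SE 0.50), the transcription factor gene Cebpd by 0.33 (SE 0.26), the kinase gene Jak2 by 0.33 (SE 0.19) and Stat3 by 0.27 (SE 0.29). Stat3 had 10.85 in the primary tumour of C1M3 and 11.67 to 11.82 on the other arrays. Of the prostaglandin list, 18 of 19 were measured, with 11 higher and 7 lower means and a median of 0.08. The prostaglandin E receptor gene Ptger3 differed by -0.74 (SE 0.62), the prostacyclin synthase gene Ptgis by 0.47 (SE 0.21), Hpgds by 0.37 (SE 0.22) and the thromboxane synthase gene Tbxas1 by 0.34 (SE 0.36). Of 26 feedback and target genes, all measured, 12 had higher and 14 lower means, with a median of -0.01. The phosphatase gene Dusp1 differed by -0.77 (SE 0.62), the macrophage growth factor gene Csf1 by 0.54 (SE 0.48), and the chemokine gene Ccl2 and the adhesion gene Icam1 by 0.34 each (SE 0.24 and 0.64). With tissue as the only term, the limma adjusted p of the genes named here was 0.842 or above.

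**Figure D4:**
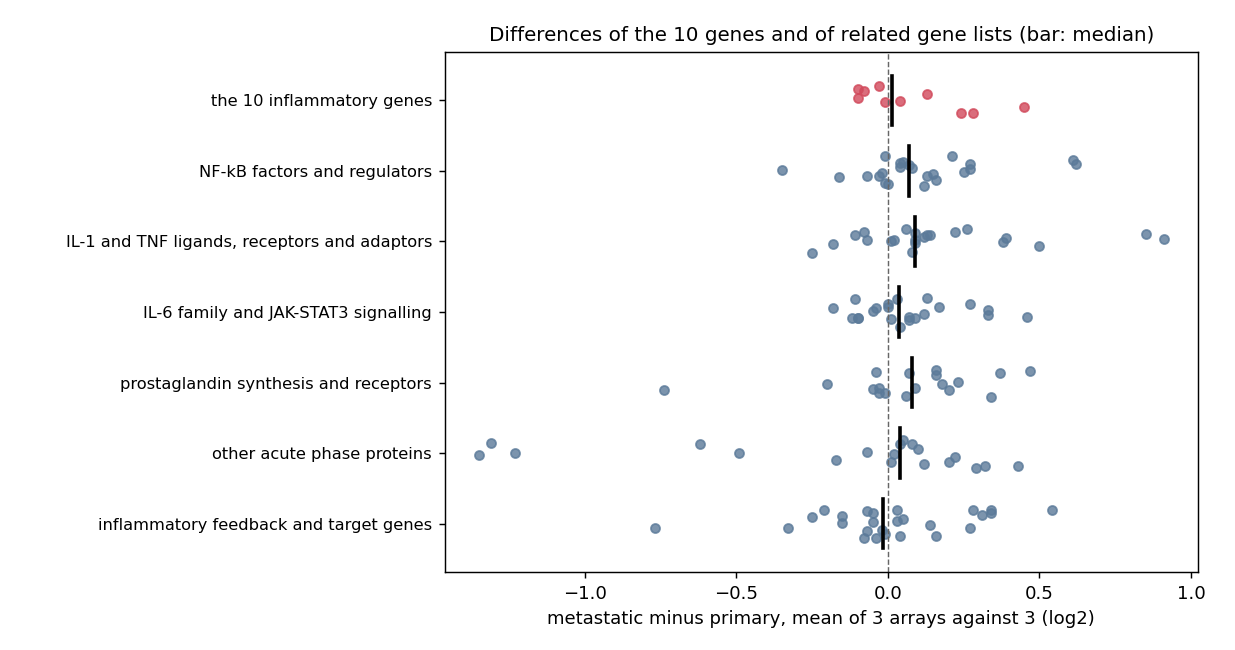
Mean metastatic minus primary difference on the log2 scale (horizontal axis) of each of the 10 genes and of the genes of 6 related lists, with a black bar at the median of each list. The medians lie between -0.01 and 0.09, and Hp, Steap4 and Serpina3n stand at the far left of the acute phase list.

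Of the 10 genes, 3 ranged over at least 1 log2 unit across the arrays, and the genes most like them were sought among 2809 other genes with such a range. For Il1b these were Kif26b (Pearson r = 0.996), Hcst (r = 0.991) and Trim12a (r = 0.988). For Lcn2 they were Igf2r (r = 0.976), Pik3c2b (r = 0.970) and Klhl30 (r = 0.968). For Nfkbia they were Fbxo32 (r = 0.984), Plp2 (r = 0.980) and Plin2 (r = 0.978). These correlations are over 6 arrays, were picked as the highest of many and describe only the pattern of log2 values over these arrays. Plin2, a lipid droplet coat gene, had 12.36, 13.83 and 13.53 in primary and 12.50, 13.79 and 13.24 in metastatic tumours, so that it too was lowest in both tumours of C1M3. Of 8 mesothelial and tumour epithelial markers, 6 exceeded the receptor gene level on all 6 arrays, Krt7 on 5 and Epcam on 2, with a list mean of 10.17 to 11.73. Normal mesothelium carries most of these markers too, so that the list mean does not tell tumour cells from it.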

How the data were processed

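RNA of 6 tumours was hybridised to whole-transcriptome arrays. The deposited values are log2 intensities per probe set, made with RMA and Transcriptome Analysis Console per the submitters' processing notes. No read depth applies, and the number of arrays limits the precision. The primary tumour of C2M3 carries another mouse in its source name, and its title and donor label were followed. Probe sets with exactly 1 gene symbol (30604 of 65956) were kept, symbols were updated through Entrez Gene with the RefSeq table of GRCm38.p6, and of several probe sets of 1 gene the one with the highest mean was used, giving 30142 genes. Dim genes were kept.

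The groups were tested by limma (version 3.58.1, under R 4.3.3) with tissue as the only term, two-sided, and Benjamini-Hochberg adjustment over all genes (threshold 0.05). The fit was tested on simulated data. The mouse as a block was an alternative, since both tumours came from 1 animal. Deviations from the group means correlated with r = -0.05, 0.35 and 0.07 within C1M3, C1M5 and C2M3.

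The 10 genes and the lists were chosen with earlier results of these data known. Named from each list were the 4 genes with the largest differences, and others as examples after their values were seen. Like-patterned genes were the 3 with the highest r per gene, without predicted genes, small RNAs and antigen receptor segments. The receptor gene comparison and the F test of the mouse were added after the data were seen.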

Additional observations from a re-analysis of the deposited data

How the results depend on the processing

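Under 16 alternatives (9 leaving out an array or a mouse and 7 others) limma called 0 of the 10 genes and 0 of all genes, with 679 to 4091 genes at an unadjusted p under 0.05 in the former and 1238 to 3180 in the latter (597 of 15071 genes under the filter on dim genes), and the smallest adjusted p of any of the 10 was 0.245. Of 157 differences of single genes under these alternatives, 138 kept their sign and 19 did not. With the mouse as a replicate block Saa3 had an adjusted p of 0.841, and the block changed no call. Centring each array on its median moved the median of all genes from 0.02 to -0.09 and that of the 10 genes to -0.09. Ptgs2 turned to -0.07 with centring and to -0.06 with a further quantile normalization. With array weights Il6 turned to 0.01 and Lcn2 to -0.11. Leaving out an array or a mouse gave differences from -0.04 to 0.03 for Il6, -0.26 to 0.27 for Ptgs2, -0.27 to 0.69 for Lcn2, -0.23 to 0.08 for Nfkbiz, -0.37 to 0.14 for Nfkbia and -0.37 to 0.21 for Il1rn, and a median of the 10 genes from -0.03 to 0.14 (0.12 without the primary tumour of C1M5 and 0.14 without the metastatic tumour of C2M3). The cause of these shifts was not tested. Il6, Tnf and Socs3 lay below the median level and have no value under the filter on dim genes.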
